A study of Mus musculus with 10 samples.

Results

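A set of 10 genes of dolichol-phosphate-mannose (Dol-P-Man) synthesis and use were followed in whole-brain transcripts of *Arid1b*+/- mice at postnatal day 3 (P3). These were *Dpm1*, *Dpm2*, *Dpm3*, *Mpdu1*, *Alg3*, *Alg9*, *Alg12*, *Pigm*, *Pomt1* and *Pomt2*, out of 18444 genes in the expression table. *Dpm1* was chosen by its HT against WT difference in these same libraries, which ranked among the strongest of all genes, so its difference is given below as a description without a test. The other 9 genes were added for their known roles in the same pathway, and for these the test across all genes is given.

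The study asked how loss of 1 *Arid1b* allele alters the brain transcriptome, since *ARID1B*, a subunit of the BAF chromatin remodelling complex, is mutated in neurodevelopmental disorders. Both groups were male C57BL/6N mice taken at P3. The 5 HT mice were heterozygous for a truncating CRISPR edit of *Arid1b* exon 5 that is present in all cells, and the 5 WT mice carried no edited allele. Poly-A mRNA of the whole brain was sequenced, with 1 library per mouse, so all cell types of the brain are mixed and fewer cells of a type cannot be told apart from less RNA per cell.

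Dol-P-Man is the mannose donor inside the endoplasmic reticulum (ER). The synthase joins mannose from GDP-mannose to dolichol phosphate, a membrane lipid: DPM1 is the catalytic subunit, DPM3 tethers DPM1 to the membrane, and DPM2 stabilises the complex. MPDU1 is needed for the donor to be used. ALG3, ALG9 and ALG12 then add mannoses to the lipid-linked oligosaccharide of N-glycosylation, PIGM adds mannose to the glycosylphosphatidylinositol (GPI) anchor, and POMT1 with POMT2 starts O-mannosylation, best known on alpha-dystroglycan. Inherited loss of these enzymes causes congenital disorders of glycosylation, many with brain involvement.

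The values are normalised read counts, that is, estimated reads of a gene divided by a size factor for the library. The libraries held an estimated 25.0 M to 31.2 M reads (M, 1000000). Throughout, means are given ± SD over the 5 libraries of a group. *Arid1b* itself (ENSMUSG00000069729) had 2101 ± 343 in HT and 3335 ± 203 in WT, or 63.0% of WT, with no overlap between the groups. Its log2 fold change was -0.68 (SE 0.11), with a limma adjusted p of 0.390 over all genes, and -0.57 with an adjusted p of 0.000252 without HT 4. HT 4 stood apart from the other libraries: its genes lay a median of 0.209 (log2) from their means over all libraries, against 0.0772 to 0.108 in the others, and transcripts in the shortest 10% of lengths were shifted by 0.27 and those in the longest 10% by -0.33. Values that HT 4 moved are therefore also given without it. Neuron markers summed to at least 188792 in each library, while the 2 liver genes in the table summed to at most 33.7.

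*Dpm1* (ENSMUSG00000078919) lies on GRCm38 chromosome 2, 168209048 to 168230591, minus strand, with 10 annotated transcripts. The same strand holds a second gene, *Gm20716* (ENSMUSG00000093752; 168180986 to 168230364), whose single transcript of 5288 bases reads through from *Dpm1* into *Adnp*, a neighbouring gene for a homeodomain protein that acts with chromatin remodellers. It is annotated as a target of nonsense-mediated decay. Of its 12 exons, 9 lie in *Dpm1* exons (895 bases, 16.93%) and 3 are exons of *Adnp* (4393 bases, 83.07%). The 30 bases across its joining junction (GENCODE M21 transcripts) are shown because they are the letters that separate it from both genes, beside the same place in the coding transcripts of *Dpm1* and in a coding transcript of *Adnp*. In each, the bases on the 5′ side of the junction are in lower case and those on the 3′ side in capitals.
Gm20716: acacatgagccaaagAAACTATGTTCCAAC
Dpm1: acacatgagccaaagGTAAGATGCATTTAA
Adnp: tgtcaattcacaccgAAACTATGTTCCAAC

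The lower-case bases of *Gm20716* end at position 168210431, within a *Dpm1* exon that in *Dpm1* itself runs on. The capitals begin at 168189394, the first base of an *Adnp* exon. Cut into words of 31 bases, 99.486% of the words of *Gm20716* also occurred in another gene. In *Dpm1*, 13.982% of all words were shared with other genes, but the coding transcripts of 1076 and 2293 bases had 66.3% and 38.2% of their words in *Gm20716*. The number of reads given to *Dpm1* therefore depends on how the quantification divided reads between these genes.

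*Dpm1* had 338.9, 453.8, 439.8, 482.4 and 366.3 normalised counts in HT 1 to HT 5. In WT 1 to WT 5 it had 531.5, 601.5, 562.7, 790.0 and 599.2. Each HT library lay below each WT library, and WT 4 stood well above the other WT libraries. The means were 416 ± 60.9 in HT and 617 ± 101 in WT, or 67.5% of WT, a log2 fold change of -0.57 (SE 0.12). These are the values that chose the gene. The difference was -0.62 without HT 4 and -0.47 without WT 4, the smallest size with any 1 library left out. Of all 17020 genes tested, 0.629% had groups that did not overlap and 0.347% had HT wholly below WT. Nothing is read from these shares for *Dpm1*, since the choice of the gene used the same values.

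**Figure D1:**
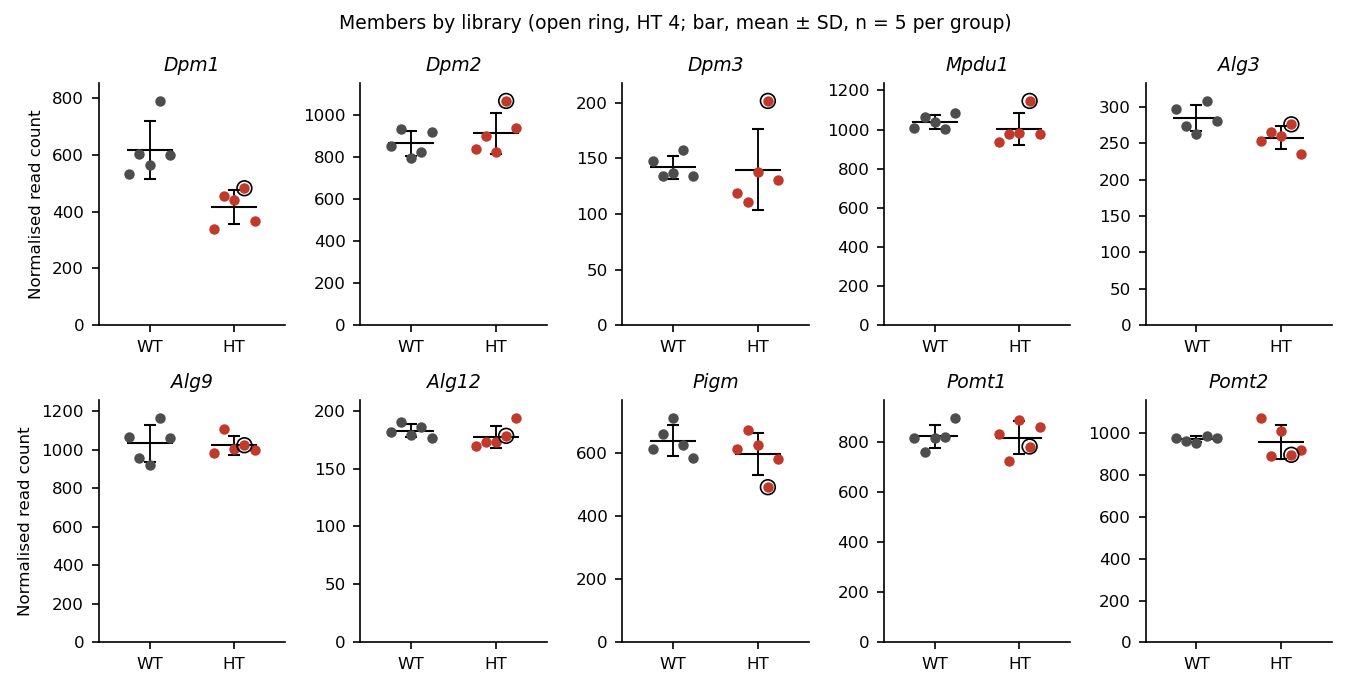
Normalised read counts (y axes, from 0) of the 10 genes in each WT and HT library (x axes). Points are libraries, bars are mean ± SD (n = 5 per group), and the open ring marks HT 4. *Dpm1* is the gene whose groups do not overlap, while HT 4 is the highest library for *Dpm2*, *Dpm3* and *Mpdu1* and the lowest for *Pigm*.

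The read-through gene did not follow *Dpm1*. *Gm20716* had 2130, 2455, 2438, 2434 and 2031 normalised counts in HT 1 to HT 5, and 2247, 2307, 2411, 2001 and 2278 in WT 1 to WT 5. WT 4, the highest library for *Dpm1*, was the lowest of all for *Gm20716*. The groups overlapped, with 2298 ± 201 in HT and 2249 ± 152 in WT, a log2 fold change of 0.03 (SE 0.07; limma adjusted p = 1.00). *Gm20716* thus had 5.05 to 6.29 times the counts of *Dpm1* in HT libraries and 2.53 to 4.28 times in WT libraries. These counts are not divided by transcript length, so their ratio does not give relative abundance. The transcript of *Gm20716* has 5288 bases, and the coding transcripts of *Dpm1* have 1076 and 2293. The ratio also carries the *Dpm1* values that chose the gene, so it is a description only.

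Summed with *Gm20716*, the log2 difference was much smaller than that of *Dpm1* alone. This was bound to happen, because *Gm20716* has several times the counts and differed little between the groups. No conclusion is drawn from the size of the sum's difference. The sum was 2714 ± 258 in HT and 2866 ± 81.7 in WT, a mean log2 difference of -0.08, and the groups overlapped. HT 1 (2469) and HT 5 (2397) lay below all WT libraries (2779 to 2974), whereas HT 2, HT 3 and HT 4 (2878 to 2917) lay among them. *Dpm1* made up 13.7% to 16.5% of the sum in HT and 18.9% to 28.3% in WT, shares that carry the same *Dpm1* values. With *Adnp* also added, the sum was 7471 ± 550 in HT and 8014 ± 291 in WT, a mean log2 difference of -0.10, again with overlap. Whether the *Dpm1* difference arises in the transcripts or in the division of shared reads was not tested, because no read-level data were used here.

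**Figure D2:**
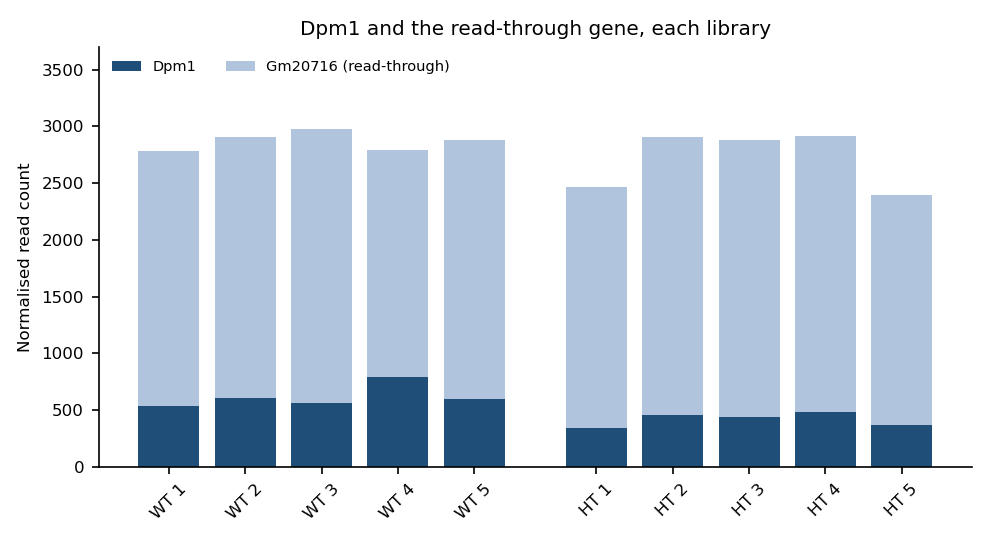
Stacked normalised read counts (y axis, from 0) of *Dpm1* (dark) and of the read-through gene *Gm20716* (light) in each library (x axis). The dark part is 338.9 to 482.4 in HT and 531.5 to 790.0 in WT, while the whole bars overlap between the groups (2397 to 2917 in HT, 2779 to 2974 in WT).

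*Mocs3*, a gene of molybdenum cofactor synthesis, starts on the opposite strand from *Dpm1*. It lies closer by GENCODE starts (168230622, against 168230591 for *Dpm1*) than by RefSeq starts, which have 242 bases between them. It had 197 ± 16.8 in HT and 183 ± 17.6 in WT, a log2 fold change of 0.11 (SE 0.10; limma adjusted p = 1.00), so the gene that shares the promoter region with *Dpm1* had a higher mean in HT, by about its standard error. *Adnp* had 4757 ± 662 in HT and 5149 ± 284 in WT, a log2 fold change of -0.12 (SE 0.09), which was -0.03 without HT 4. *Kcng1*, a potassium channel subunit and the remaining tested gene within 100 kb, had 781 ± 104 and 811 ± 49.8, a log2 fold change of -0.06 that turned to 0.0074 without HT 4. Within 500 kb, 8 genes other than *Dpm1* were tested: 3 had higher and 5 lower mean log2 values in HT (median change -0.03), and 0 reached even an unadjusted limma p under 0.05.

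**Figure D3:**
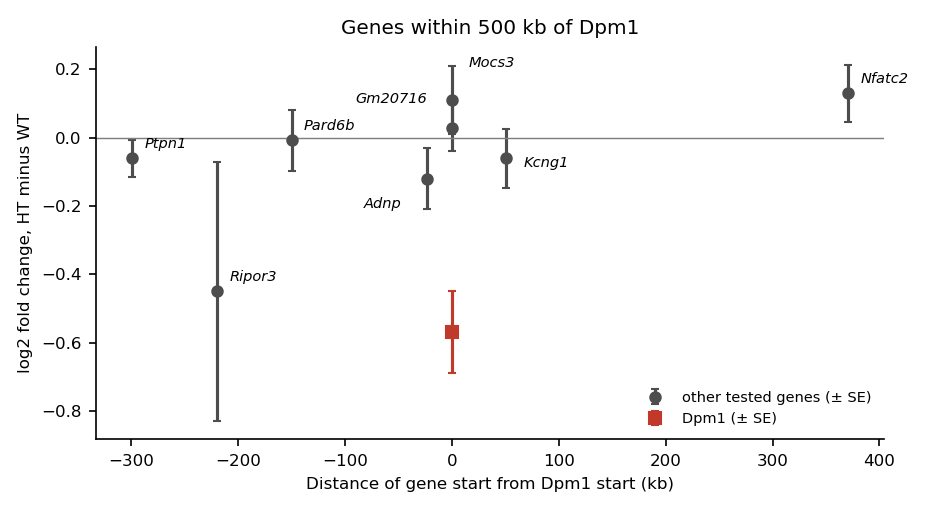
Log2 fold change, HT minus WT (y axis, ± SE), of *Dpm1* and the 8 other tested genes within 500 kb, against the distance of each gene's start from that of *Dpm1* (x axis, kb). *Dpm1* is at -0.57 and the others lie between -0.45 (*Ripor3*, a gene of very low counts) and 0.13 (*Nfatc2*).

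The RefSeq promoter windows (250 bases before to 50 after the start, GRCm38.p6) were available for 9 of the 10 genes and searched on both strands for 7 short motifs. *Dpm1* was the only one of the 9 with the cAMP response element letters TGACGTNA, held by 3.08% of 27025 promoters. *Dpm1* and *Alg12* held the ETS letters CCGGAAG (9.12% of promoters), and *Dpm2* held the E-box TCACGTGA (1.01%), which overlaps no other motif searched. The stretches around these motifs are shown because they differ between 2 subunits of the same enzyme, with the motif in capitals.
Dpm1, chr2:168230600-168230629, minus strand, ETS: cctCTTCCGGaaagagccgggaagggactt
Dpm1, chr2:168230380-168230409, minus strand, cAMP response element: gtacggcccgtgtcggaTGACGTAAgtccg
Dpm2, chr2:32570823-32570852, plus strand, E-box: gtctccgcgtgTCACGTGAtttacaagccg

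Of the other motifs, GGGCGG (35.9% of promoters) was in the windows of 4 of the 9 genes, CCAAT (37.9%) in 5 including *Dpm1*, and the NRF1 motif (4.78%) in *Mpdu1* and *Pomt1*. The ER stress element, a CCAAT and a CCACG set apart by a fixed spacer, was in *Alg12* and in 35 promoters in all (0.13%). *Dpm1* and *Mocs3* share 258 of the 300 bases of their windows, so both hold the ETS and cAMP response element letters. The cAMP response element stretch of *Dpm1* lies before its RefSeq start but within its GENCODE span, which starts at 168230591 on the minus strand. All these matches are a description of the sequence.

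Among the other subunits of the synthase, *Dpm2* (ENSMUSG00000026810; chromosome 2, 32570858 to 32573579) had 839.7, 900.3, 824.5, 1068 and 940.9 normalised counts in HT 1 to HT 5. In WT 1 to WT 5 it had 851.8, 932.5, 797.4, 827.2 and 920.7. The groups overlapped and HT 4 was the highest library. The means were 915 ± 97.7 and 866 ± 58.8, a log2 fold change of 0.07 (SE 0.08; limma adjusted p = 1.00), or 0.02 without HT 4.

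*Dpm3* (ENSMUSG00000042737; chromosome 3, 89259358 to 89267079), the membrane tether of DPM1, had 119.0, 110.4, 138.1, 201.7 and 130.6 in HT 1 to HT 5. In WT 1 to WT 5 it had 147.7, 133.9, 137.0, 157.4 and 134.2. HT 4 was far above all other libraries and 3 of the remaining HT libraries were below all WT libraries. The log2 fold change was -0.05 (SE 0.15; limma adjusted p = 1.00) with all libraries, -0.19 without HT 4 and 0.03 without HT 2, so that its direction rested on single libraries. The ratio of *Dpm1* to *Dpm2* counts was 0.456 ± 0.0622 in HT and 0.716 ± 0.137 in WT with no overlap. That of *Dpm1* to *Dpm3* counts was 3.07 ± 0.647 and 4.34 ± 0.525 with overlap. Both ratios carry the *Dpm1* values that chose the gene. The counts are not divided by transcript length, so the ratios do not give proportions of the subunits.

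None of the 9 genes other than *Dpm1* passed the test. With limma, 0 of 9 had an adjusted p under 0.05, where 0% of all tested genes did, and 0 of 9 had an unadjusted p under 0.05, against 580 of 17020 genes (3.41%, of which 1.93% lower and 1.47% higher in HT). The groups overlapped for all 9, against 0.629% of all genes without overlap (0.347% lower and 0.282% higher in HT). Of the 9, 8 had a lower mean log2 value in HT, as did 53.6% of all genes tested, and their median log2 fold change was -0.04, beside -0.0074 over all genes tested. Without HT 4, 7 of 9 were lower, beside 50.4% of all genes.

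*Alg3* (ENSMUSG00000033809; chromosome 16, 20605374 to 20611735), the mannosyltransferase that first uses Dol-P-Man on the lipid-linked oligosaccharide, had the smallest limma p of the 9 with all libraries. It had 253.0, 265.3, 260.7, 276.1 and 234.8 in HT 1 to HT 5 and 297.3, 274.2, 263.5, 308.3 and 280.5 in WT 1 to WT 5. Of the HT libraries, 3 were below all WT libraries and the other 2 lay within the WT range. The means were 258 ± 15.4 and 285 ± 18.0, a log2 fold change of -0.14 (SE 0.08), or -0.17 without HT 4. An exact two-sided permutation test over the 252 splits gave p = 0.0397, 1 of 9 such tests, while limma gave an unadjusted p of 0.094 and an adjusted p of 1.00. Without HT 4 the unadjusted p was 0.0623, and that of *Mpdu1* was smaller. Its exons overlap those of *Eef1akmt4* on the opposite strand over 143 bases.

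The later enzymes of the same arm were nearly level. *Alg9* (chromosome 9, 50775019 to 50843542) had a mean of 1024 ± 49.3 in HT and 1034 ± 95.8 in WT, and libraries from 924 to 1164 in WT enclosed all HT libraries (982 to 1108). *Alg12* (chromosome 15, 88805244 to 88819318) had 177 ± 9.51 and 182 ± 5.51, with 4 HT libraries from 169 to 178 and HT 5 at 193, above all WT libraries (176 to 190). Their log2 fold changes were -0.0098 and -0.04. *Alg9* exons overlap those of *1110032A03Rik* on the opposite strand over 500 bases, and the strand setting of the counting is not stated.

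*Mpdu1* (chromosome 11, 69656697 to 69662642), needed for use of the donor, had 935.4, 977.3, 980.5, 1147 and 979.5 in HT 1 to HT 5, against 1009, 1066, 1040, 1002 and 1083 in WT 1 to WT 5. The groups overlapped: HT 4 was the highest of all, and each other HT library lay below each WT library. How many of all genes lack overlap once HT 4 is left out was not counted. The log2 fold change was -0.05 (SE 0.06, limma adjusted p = 1.00) with HT 4 and -0.10 without it. Without HT 4 the limma p was 0.0519 unadjusted and 0.594 adjusted. In that fit, 1429 of 17020 genes had an unadjusted p under 0.05.

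*Pigm* (chromosome 1, 172376546 to 172384099), the GPI mannosyltransferase, had 612.8, 670.1, 624.8, 490.8 and 579.3 in HT 1 to HT 5 and 612.7, 658.6, 709.0, 624.9 and 582.7 in WT 1 to WT 5. HT 4 was the lowest library, and the log2 fold change of -0.10 (SE 0.09) was -0.04 without it. The O-mannosyltransferases *Pomt1* (chromosome 2, 32236590 to 32255005) and *Pomt2* (chromosome 12, 87106861 to 87147968) were level on average: 818 ± 65.5 in HT and 823 ± 47.6 in WT, and 957 ± 79.2 and 971 ± 12.9. *Pomt2* was the steadiest of the 10 in WT, with a coefficient of variation of 1.33%, and *Dpm1* the most variable, with 16.4%. Without WT 4, *Dpm1* was at 5.80%, below *Pigm*, *Dpm2*, *Alg9* and *Pomt1*. The exons of *Pomt2* overlap those of *Gstz1* on the opposite strand over 465 bases.

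**Figure D4:**
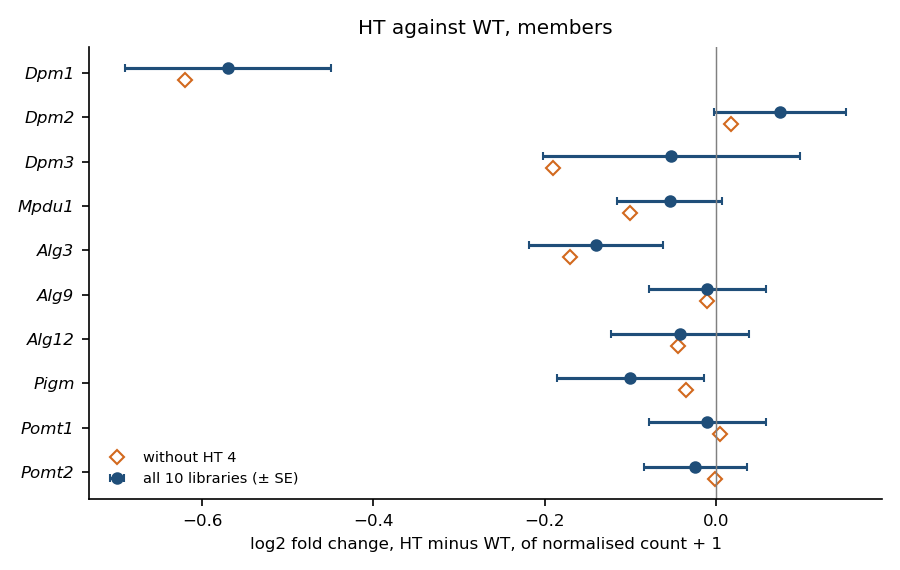
Log2 fold change, HT minus WT (x axis, on normalised count + 1), of each of the 10 genes (y axis) with all 10 libraries (circles, ± SE) and without HT 4 (open diamonds). *Dpm1* lies at -0.57 and the other 9 between -0.14 (*Alg3*) and 0.07 (*Dpm2*). *Dpm3* moves most when HT 4 is left out.

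HT 4 took the extreme value of all 10 libraries for 4 of the 10 genes. It was highest for *Dpm3*, *Mpdu1* and *Dpm2*, whose longest transcripts are the shortest of the set (827, 1321 and 1412 bases), and lowest for *Pigm*, whose transcript is the longest (7554 bases). For *Alg3* (1451 bases) and *Pomt2* (5064 bases), the next in length at each end, HT 4 lay inside the range of the other libraries. For *Dpm1*, HT 4 was the highest HT library and still lay below all WT libraries.

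Markers of the choroid plexus and of microglia had lower means in HT in the same libraries, as had 53.6% of all genes tested. All 5 choroid plexus markers had lower means in HT, 3 with an unadjusted limma p under 0.05, as had 3.41% of all genes tested. Their sum ran from 6527 to 9378 in HT and from 9912 to 13579 in WT, without overlap. The marker with the highest counts had a mean of 9649, so this sum is mostly the value of 1 gene. Of all genes tested, 0.629% had groups without overlap. WT 4 was the highest library for this sum as for *Dpm1*. Within HT the order differed: the sum was lowest in HT 5 and highest in HT 3, while *Dpm1* was lowest in HT 1 and highest in HT 4. All 7 microglia markers were lower on average, 0 with an unadjusted p under 0.05, with sums of 1122 to 1693 in HT and 1242 to 2231 in WT. Of the other lists, 0 of 5 erythroid, 1 of 6 astrocyte and radial glia, 2 of 7 oligodendrocyte lineage and 3 of 7 neuron markers had lower means, as did 4 of 5 endothelial markers, 0 of these with an unadjusted p under 0.05 and all with overlapping sums. The part of these cell types in the *Dpm1* difference was not tested.

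Per kilobase of the longest annotated transcript, the order of WT levels was *Mpdu1* (787 normalised counts per kb), *Dpm2* (613), *Alg9* (360), *Pomt1* (246), *Alg3* (196), *Pomt2* (192), *Dpm3* (172), *Dpm1* (124), *Alg12* (85.7) and *Pigm* (84.4). The WT ranges of *Alg3* and *Pomt2*, *Pomt2* and *Dpm3*, and *Alg12* and *Pigm* overlapped, so these neighbours are not ordered. The longest *Dpm1* transcript, of 4959 bases, retains an intron, so the order depends on the length used. Per kilobase of the median coding transcript it was *Alg9* (1366), *Mpdu1* (1344), *Pomt1* (1022), *Dpm2* (759), *Dpm1* (366), *Dpm3* (231), *Alg3* (222), *Pomt2* (192), *Alg12* (102) and *Pigm* (84.4), which puts *Dpm1* at rank 5 in place of 8. With this length the WT ranges of *Alg9* and *Mpdu1*, and of *Dpm3* and *Alg3*, overlapped, so these neighbours are not ordered.

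The 10 genes did not vary as a block. With group means removed, the median Pearson's r over the 45 pairs of genes was -0.05 across the 10 libraries, with 21 pairs above 0. Within the set, *Alg3* and *Alg9* varied together (r = 0.74, rho = 0.82), and *Dpm1* with *Alg3* (r = 0.68, rho = 0.61) and with *Alg9* (r = 0.60, rho = 0.49), and these were 0.83, 0.61 and 0.66 without HT 4. WT 4 was the highest WT library for all 3 genes, and without it the values were 0.62, 0.52 and 0.29. *Dpm3* with *Mpdu1* went from r = 0.71 to -0.37 without HT 4. These correlations are descriptions over 10 libraries that share size factors and the HT 4 shift.

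Outside the set, 12825 genes of mean 100 or more were compared with *Dpm1* by their deviations over the 10 libraries. The 5 most alike were *Zfp768* (r = 0.94), *Cd2bp2* (0.93), *Lsm5* (0.91), *Krcc1* (0.90) and *Platr25* (0.89). Picking the highest of so many over 10 libraries gives high values by itself, so no link to *Dpm1* is read from them. Without WT 4 the values were 0.91, 0.93, 0.93, 0.82 and 0.83, and the genes then ranked 18, 5, 7, 142 and 102. None was lower in HT to the extent of *Dpm1*: *Zfp768*, a zinc finger gene, had 555 ± 39.1 in HT and 550 ± 43.9 in WT, and *Cd2bp2*, a spliceosome component, had 2429 ± 157 and 2471 ± 112. *Krcc1* had the lowest log2 fold change of the 5, -0.14, with 283 ± 35.8 in HT and 312 ± 54.2 in WT.

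No gene in the rest of the pathway passed the test, and neither did any other of the 17020 genes tested. In 8 lists, 117 genes were tested: 74 (63.2%) had higher and 43 lower mean log2 values in HT, where 46.4% of all genes tested were higher. Without HT 4, 79 were higher, beside 49.6% of all genes. With all libraries, 0 had a limma adjusted p under 0.05 and 2 had an unadjusted p under 0.05 (1.71%, against 3.41% of all genes). Upstream, the 12 genes of dolichol and GDP-mannose supply split into 6 higher and 6 lower (median log2 fold change 0.0025), from -0.02 for *Dhdds*, a subunit of the dolichol chain synthase, to 0.09 for *Pmm1*, a phosphomannomutase. Without HT 4 the median was -0.0044 and *Pmm1* stood at 0.02. The 10 other enzymes that use Dol-P-Man had 6 higher and 4 lower with a median of 0.0067, and 9 higher of 10 with a median of 0.03 without HT 4. They ran from -0.35 for *Pigz* (24.7 ± 8.23 in HT, 33.5 ± 15.4 in WT) to 0.06 for *Pigv* (-0.31 and 0.02 without HT 4).

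For N-glycosylation, the 11 genes of the earlier and glucose steps had 6 higher and 5 lower (median 0.04, from -0.05 for *Alg14* to 0.10 for *Alg13*, partners in the same early step), and 8 higher without HT 4 (median 0.05). Of the 11 tested oligosaccharyltransferase genes, which move the finished oligosaccharide to protein, 10 had higher means (median 0.04), but 6 of 11 without HT 4 (median 0.0049). The extremes were -0.00012 for *Magt1*, which had no clear direction (-0.04 without HT 4, 0.02 with a length and GC trend removed), and 0.15 for *Ost4*, which was 0.06 without HT 4. *Tusc3* was not analysed here. GPI anchor assembly had 11 higher and 10 lower of 21 (median 0.0032, from -0.12 for *Pigh* to 0.17 for *Pigo*), with a median of -0.0048 without HT 4. O-mannose extension had 7 higher and 3 lower of 10 (median 0.04, from -0.08 for *B3galnt2* to 0.11 for *B4gat1*), and these extremes were -0.02 and 0.03 without HT 4.

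In the ER folding and unfolded protein response list, 17 of 22 genes had higher means (median log2 fold change 0.05), from -0.08 for *Atf6*, a stress sensor (0.02 without HT 4, its lowest library), to 0.15 for *Manf*, a secreted ER stress factor (0.11 without HT 4), and 0 had an unadjusted limma p under 0.05. The 20 genes of proteins that carry O-mannose or a GPI anchor had a median of 0.0063 (0.04 without HT 4) and held both genes with an unadjusted limma p under 0.05. *Nrn1*, a GPI-anchored neurite growth factor, had 1464 ± 249 in HT and 1234 ± 46.2 in WT without overlap. It was the only such gene of the 117 in the lists (0.855%), beside 0.629% of all genes tested. Its difference was 0.23 on the log2 scale (0.13 without HT 4, limma p of 0.025, adjusted p of 1.00). *Rtn4r*, the GPI-anchored Nogo receptor, had 977 ± 53.8 and 894 ± 32.8, a difference of 0.13 (limma p of 0.0383, adjusted p of 1.00), which was 0.10 with an unadjusted p of 0.0731 without HT 4. *Cntn2*, an axonal GPI-anchored adhesion molecule, was the lowest of the list at -0.16, or -0.06 without HT 4.

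**Figure D5:**
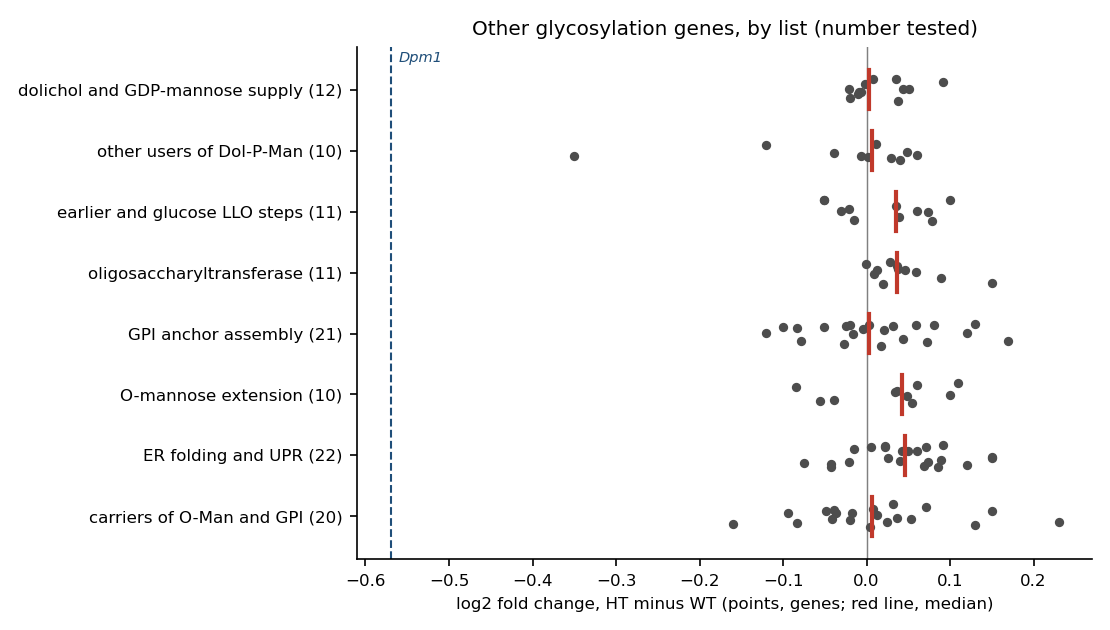
Log2 fold change, HT minus WT (x axis), of 117 genes in 8 lists (y axis, number tested in parentheses). Points are genes, red lines are list medians and the dashed line is *Dpm1* at -0.57. List medians lie from 0.0025 to 0.05, and the lowest point is *Pigz* at -0.35.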

How the data were processed

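The deposited table holds signal values, 1 per gene and library: per the study's methods the authors quantified paired-end reads (poly-A libraries) with Salmon (1.1.0) on GRCm38, and divided the estimated reads by DESeq2 (1.30.1) size factors. The annotation release and the strand setting are not given in the sources used here. Between 7.95% and 30.7% of the small values of a library came out as whole reads (within 0.02 of a whole number), so count tests were not run. Estimated depth was 25.0 M to 31.2 M reads per library (M, 1000000).

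Groups and replicate numbers came from the sample labels. Genes with a mean of at least 10 (17020 of 18444) were compared as log2(value + 1) with limma 3.58.1 in R 4.3.3 (trend, robust, two-sided, Benjamini-Hochberg over all genes tested, threshold 0.05), so fold changes of low genes are understated. Exact permutation tests used 252 splits, with a smallest p of 0.00794. The workflow was tested on simulated data. Symbols, positions and 31-base words came from GENCODE M21 and promoters from RefSeq.

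The genes and lists were chosen with earlier results of these data known. Named were the 10 genes, *Arid1b*, the extremes of each list and its genes with p under 0.05, tested genes within 100 kb of *Dpm1* (500 kb if p was under 0.05) and the 5 genes most like it; *Ripor3* and *Nfatc2* were named after their values were seen.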

Additional observations from a re-analysis of the deposited data

Results flagged for a closer look

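Among 74 groups of 5 libraries (37 named genes), 7 held a library whose gap to its nearest neighbour exceeded 0.71 of the group's range, the 95% limit of Dixon's test. Chance alone gives about 1 in 20 such groups, or 3.7 here, and HT 4 was the library in 4 of the 7. Of the glycosylation genes in the set, *Dpm1* had 790.0 normalised counts in WT 4 against 532 to 602 in the other WT libraries, and *Mpdu1* had 1147 in HT 4 against 935 to 980. *Arid1b* had 1505 in HT 4 against 2142 to 2372 in the other HT libraries, and *Adnp* had 3624 in HT 4 against 4888 to 5365. *Nrn1* had 1899 in HT 4 against 1294 to 1436. In HT 1, *Pigz* had 39.1 against 19.7 to 23.9 and *Pigh* had 327 against 263 to 277. The cause of these values was not tested.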

How the results depend on the processing

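*Dpm1* had a log2 fold change of -0.63 to -0.47 under all 20 alternatives run. Its HT libraries all lay below its WT libraries in the values that chose it. Leaving out a library could therefore not change its sign, and nothing is read from this. Of the 9 other genes, 0 had an adjusted or unadjusted limma p under 0.05 under any alternative. The log2 difference of the *Dpm1* locus was -0.08 with *Gm20716* added and -0.10 with *Adnp* also added, sums chosen after seeing the data. Adding these larger genes shrinks the log2 difference by itself. The count of genes past the threshold, 0 of 17020 (580 at an unadjusted p under 0.05), was 2 with sample weights, 1 with the length and GC trend removed, 2 with that trend removed and HT 4 left out, and 0 to 2 with each library left out in turn (2 without HT 4, where 1429 had an unadjusted p under 0.05). *Arid1b* (-0.68, limma adjusted p = 0.390) passed under these 4 settings: -0.60 with sample weights, -0.65 with the trend removed, -0.63 with the trend and HT 4 removed, and -0.57 without HT 4 (leave-one-out range -0.73 to -0.57).

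Small differences changed sign: *Alg9* to 0.0052 and *Pomt1* to 0.021 with the trend and HT 4 removed, and, leaving out each library in turn, *Dpm3* (-0.19 to 0.025), *Alg9* (-0.049 to 0.034), *Pomt1* (-0.041 to 0.033), *Pomt2* (-0.065 to 0.0011) and, without HT 4, *Kcng1* (0.0074) and *Atf6* (0.021). *Magt1* went to 0.023 with the trend removed. Values without WT 4 and those of list genes were chosen after seeing the data. *Dpm1* ranked 5 rather than 8 in level with the median coding length. The cause of these shifts was not tested. HT and WT libraries of the same number had r from -0.104 to 0.0926, with 4 of 5 above 0, and 6 of 10 libraries correlated best with their own number, a hint of pairing that the labels do not give. No pair exceeded 0.1, so the numbers were not treated as pairs. With the replicate number as a block, 0 genes passed the threshold, 558 had an unadjusted p under 0.05 and *Dpm1* was at -0.57. Depth limits *Pigz* (means 24.7 and 33.5) and *Ripor3* (13.0 and 17.6).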
